A study of Oryza sativa Japonica Group with 20 samples.

Results

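Roots of rice seedlings dried in air for 6 h were compared with roots collected at 0 h, before drying began. The comparison took 4 of the 20 arrays, 2 biological replicates for root at 6 h and 2 for root at 0 h, and all 27609 genes on the array after its 6 control features were set aside. Expression was measured in leaf and root at 0, 0.5, 2, 6 and 12 h, so the roots also had neighbours in time, at 2 h and 12 h, and a second organ collected from seedlings at the same times. The plants were non-transgenic Oryza sativa japonica, cultivar Nakdong. Seedlings 14 days old were taken out of soil, stood in fresh water for a day, blotted and dried in a chamber at 32 °C and 50% humidity under constant light, while a layer of tissue and one of aluminium foil covered the roots. Root at 0 h shares the steps before drying, but not the hours in the chamber, its constant light or the cover around the roots. No watered root of 6 h is among the groups compared here. The effect of drying thus cannot be told apart from those of the chamber, the light, the cover and the hours passed. Values are single-colour array intensities on a linear scale, already summarised per gene by the authors, and a change is a difference of mean log2 intensities, 6 h minus 0 h. In these bulk samples fewer cells of a type and less RNA per cell cannot be told apart.

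A root that loses water meets falling turgor and rising solute concentration, and the hormone abscisic acid, made in drying tissue, switches on much of the response. Among its products are the dehydrins, small hydrophilic proteins of the late embryogenesis abundant family that protect proteins and membranes as water leaves the cell. Growth, which in a root depends on dividing cells at the tip and on cell expansion behind it, usually slows early. Photosynthesis genes belong to green tissue. The small subunit of Rubisco fixes carbon together with the large subunit, and the chlorophyll a/b binding proteins hold the pigment that gathers light for the photosystems. These nuclear genes are normally little expressed in a root kept from light.

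The tissue label was checked first. Of 55 genes picked on the 2 h arrays as far higher in leaf than in root, the median gene read 392 and 516 in the replicates of root at 6 h, 482 and 424 in root at 0 h, and 15900 and 14500 in leaf at 0 h. Of 28 genes picked there as far higher in root, the median was 14700 and 13600 in root at 6 h, 10800 and 15000 in root at 0 h, and 267 in leaf at 0 h. Both root groups thus carried the root set high and the leaf set low. The replicates of root at 6 h were the closest of the 10 groups, with a correlation across genes of 0.981 and 3.96% of genes apart by more than 1 on the log2 scale, against 0.963 and 8.66% for root at 0 h. The median gene read 2590 and 2610 at 6 h and 2700 and 2740 at 0 h. A control feature of random sequences, used here as a floor, read 172 to 196 at 6 h and 146 to 161 at 0 h. The 5 other controls, sequences of transgenes that these plants do not carry, read higher, 424 to 3822 at 6 h and 289 to 2890 at 0 h, and a level in that range need not come from the gene's own transcript.

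After 6 h more genes were lower than higher in root. A gene was called at a Benjamini-Hochberg adjusted p under 0.05 in limma's moderated test together with a log2 change beyond 1 in either direction. Under that rule 606 genes were higher, 2.19% of those tested, and 1689 were lower, 6.12%, in all 8.31%, so the lower list was 2.79 times as long. The median change over all 27609 genes was 0.01, and all but the outermost changes on either side (the 5th and 95th percentiles) ran from −1.81 to 1.04. The typical standard error of a change was 0.41, and its 95% interval, not adjusted over genes, reached 0.89 to either side. Before adjustment a doubling of a typical gene was thus close to what 2 arrays a side could resolve. The adjusted p asks for more than that. In all, 1491 genes changed by more than 1 upward and 3744 by more than 1 downward, most of them without passing the test. The counts depended on single arrays. They were lowest, at 187 higher and 272 lower, when replicate 2 of root at 6 h was left out, and dropping its replicate 1 gave 279 and 870. With replicate 1 of root at 0 h dropped the counts were 221 and 397, and with its replicate 2 dropped they were 462 and 968.

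**Figure D1:**
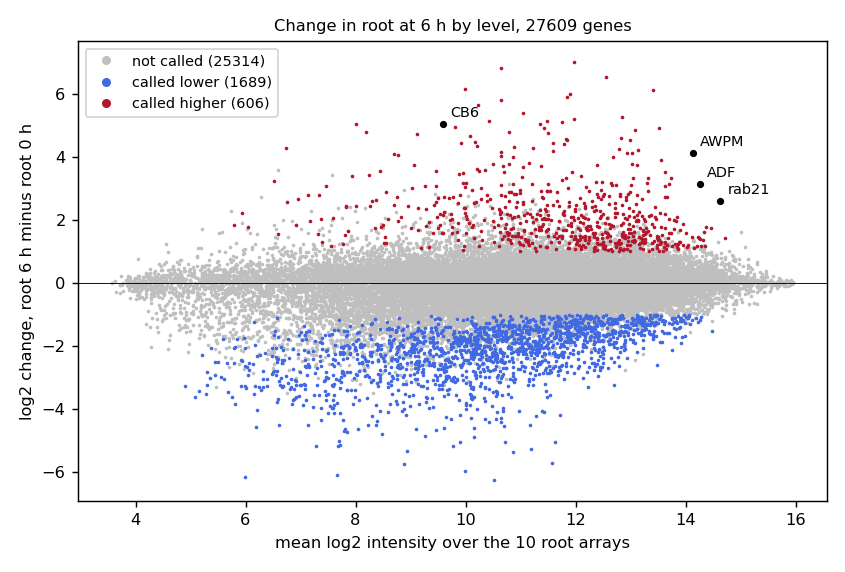
Log2 change in root (6 h minus 0 h, vertical axis) against the mean log2 intensity over the 10 root arrays (horizontal axis) for 27609 genes, with the 606 genes called higher in red, the 1689 called lower in blue and the rest in grey. Genes called lower spread further to the dim side, and rab21, ADF and AWPM lie at the bright end of the axis among those called higher. The mean on the horizontal axis includes the dried roots, which moves genes that fell toward the dim side.

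Both lists held large changes. The median change was 1.93 in the higher list and −2.01 in the lower list, and 288 and 848 genes passed 2 on the log2 scale. Beyond 4 the lists were nearly equal in length, at 50 genes higher and 63 lower, and beyond 5 they held 18 and 17. The largest rise was 7.01 and the largest fall was −6.25. Every called gene had both arrays of one time beyond both of the other, which was also true of 63.1% of all genes tested (29.2% above and 33.9% below).

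Bright and dim genes differed in which way they went. Genes were ranked by mean level over the 20 arrays into 5 equal classes. That mean includes the dried roots, so a fall moves a gene toward the dim classes and a rise toward the bright ones. The differences between classes are thus in part set by the ranking. In the class with the lowest mean over the 20 arrays, whose median intensity was 250, 47 genes were higher (0.851%) and 480 lower (8.69%). In the brightest class, with a median of 10900, 167 were higher (3.02%) and 147 lower (2.66%). The percentage called higher went up and the percentage called lower went down from the second class to the last, although the standard error was largest for dim genes (median 0.58 in the dimmest class and 0.29 in the brightest). Part of the lower list ended at the background. Of the 1689 genes, 262 read below the random-sequence feature on both arrays of root at 6 h and 82 on one, so the exact size of their falls is not known. Of the 606 higher genes, 36 read below it on both arrays of root at 0 h and 24 on one. Against sGFP, the brightest transgene control, the brighter group of 427 of the 606 higher genes (70.5%) and of 1123 of the 1689 lower genes (66.5%) had the higher mean.

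The genes that the study names were described one by one. Of its 12 named genes 11 were found on the array by the study's identifiers. The identifier given for ubi, its constitutive reference, was not among the features, although the paper reports ubi from its array data as unchanged. For 4 of these genes, whose transcripts carry the clearest rises described here, the primer pairs that the study designed for RT-PCR are shown because they say which transcript each name stands for. Each sequence runs 5′ to 3′, the forward primer reads along the transcript and the reverse primer along the opposite strand, and the RT-PCR itself was not analysed here.
rab21 forward: cgtctaccgtgagaaccaca
rab21 reverse: gtaggcgatgaagctgatga
ADF forward: gccgtgtacgaccacgactt
ADF reverse: ttaggaggtgtggtccttgag
AWPM forward: ctcttctccggcaaccacgc
AWPM reverse: agctcgatcacaccgagata
CB6 forward: aacatcctcaccagcctcaa
CB6 reverse: acgcaccatcgatcgtacaa

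The dehydration markers came first. rab21 (AK121952), a dehydrin gene induced by abscisic acid and water deficit, read 49171 and 52489 in root at 6 h, against 9282 and 7446 at 0 h. Both arrays at 6 h lay far above both at 0 h. The log2 change was 2.61 (standard error 0.28, 95% interval 2.00 to 3.22, limma adjusted p = 1.96e-04), a 6.11-fold rise. dip1 (AK070197), the other marker of induction that the study used, read 41392 and 40760 at 6 h, against 35397 and 31401 at 0 h. The change was 0.30 with an interval of −0.30 to 0.90 (adjusted p = 0.622), so a rise of this size was not detectable here. The paper reads dip1 from its array data as induced at 0.5 h and staying so to 12 h, with no organ given in that sentence. In its RT-PCR, dip1 rose strongly in leaf and root alike. The highest mean level of any gene over all arrays was 63300. Whether the array understates changes at levels as bright as those of dip1 and rab21 was not tested. The same holds for the later levels of rab21, ADF and AWPM and for their comparison with leaf below.

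The genes for an actin-binding protein and a membrane protein rose as well. The study named both because they were among the strongest inductions in these same data, so their rise is not independent evidence. ADF (Os03g0820500) encodes an actin-depolymerising factor, which severs actin filaments and so remodels the cytoskeleton. It read 36040 and 35557 in root at 6 h, against 4710 and 3523 at 0 h, a change of 3.14 (standard error 0.27, adjusted p = 3.12e-05) or 8.79-fold. AWPM (AK102039) belongs to a family of plasma membrane proteins known from wheat cells, where the founding member accumulates with abscisic acid and freezing tolerance. AWPM read 43734 and 41250 at 6 h, against 2610 and 2296 at 0 h. Its change was 4.12 (standard error 0.47, adjusted p = 2.44e-04), or 17.4-fold, and without any one of the 4 arrays it stayed between 4.02 and 4.21. In rab21, dip1, ADF and AWPM each array at 6 h lay above each at 0 h, which was so in 29.2% of all genes tested, and dip1 was the one that did not pass.

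**Figure D2:**
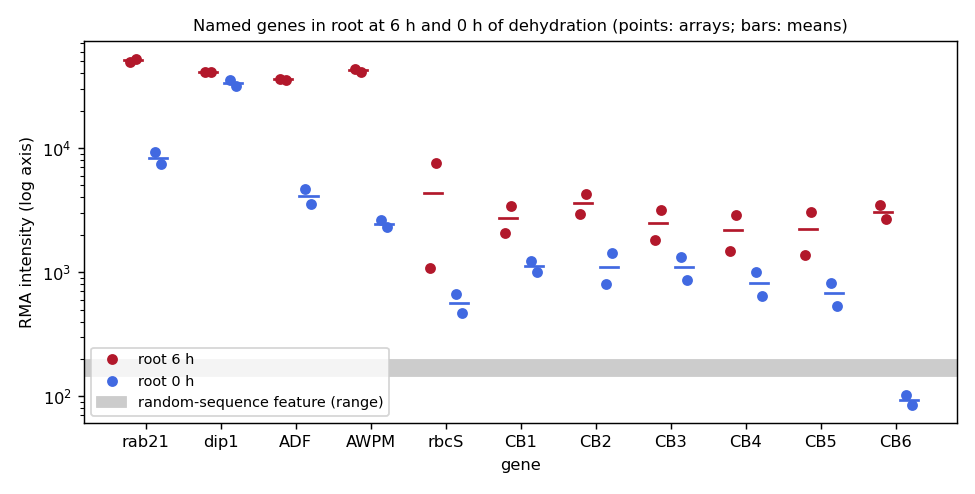
RMA intensity on a log axis for the 11 study genes on the array, with the 2 arrays of root at 6 h in red to the left and the 2 of root at 0 h in blue to the right of each name. Points are arrays, bars are group means, and the grey band is the range of the random-sequence feature over the 4 arrays; rab21, ADF, AWPM and CB6 separate widely, dip1 hardly, and the replicates of rbcS at 6 h lie far apart.

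The 7 photosynthesis genes that the study names read higher in root at 6 h than at 0 h. Of these, 3 passed the test, where 2.19% of all genes tested were called higher. The study picked CB1 to CB6, its 6 chlorophyll a/b binding protein genes, for a rise in these same root samples, so their direction is not independent evidence. CB6 (AK106085) was the clearest. It read 3490 and 2661 in root at 6 h, against 102 and 84 at 0 h, where both arrays lay below the random-sequence feature. With those values raised to the feature the rise was at least 4.31 on the log2 scale, at least 19.9-fold (fitted change 5.04, adjusted p = 1.78e-04). CB6 was thus above the random-sequence feature in root at 6 h and not at 0 h.

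CB2 (AK119176) and CB4 (AK060222) were called with smaller changes. CB2 read 2915 and 4273 at 6 h, against 802 and 1415 at 0 h (change 1.73, adjusted p = 0.0126). CB4 read 1471 and 2874 at 6 h, against 996 and 638 at 0 h (change 1.37, adjusted p = 0.0417). Both calls rested on single arrays: with replicate 2 of root at 6 h left out the adjusted p was 0.167 for CB2 and 0.440 for CB4, and with replicate 1 of root at 0 h left out it was 0.167 and 0.0871. CB4 was also not called without root 0 h replicate 2 (adjusted p = 0.248).

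The other 3 did not pass. CB1 (AK060904) read 2055 and 3444 at 6 h, against 1222 and 1007 at 0 h (change 1.26, adjusted p = 0.160). CB3 (AK066762) read 1824 and 3156 at 6 h, against 1329 and 867 at 0 h (change 1.16, adjusted p = 0.149). CB5 (AK119534) read 1371 and 3064 at 6 h, against 822 and 530 at 0 h (change 1.64, adjusted p = 0.0667). In each of CB1 to CB5 both arrays at 6 h lay above both at 0 h, as in 29.2% of all genes tested, and replicate 2 was the brighter one at 6 h, while CB6 was brighter in replicate 1. All the root levels of CB1 to CB5 except the 6 h replicate 2 value of CB2 lay between the lowest and highest transgene control of the same 2 groups.

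rbcS (AK121444), the Rubisco small subunit gene, separated the replicates most. It read 1082 and 7582 in root at 6 h, against 668 and 465 at 0 h. The change of 2.36 had an interval of 0.62 to 4.10 and did not pass (standard error 0.81, adjusted p = 0.0933). Without root 6 h replicate 1 the change was 3.77 (adjusted p = 0.0160), and without replicate 2 it was 0.96 (adjusted p = 0.706), so the size of the rbcS change was set by which replicate was kept.

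Leaf RNA in the root samples was measured beside these values. The 55 other leaf genes, which leave out rbcS and CB1 to CB6, gave a summed intensity of 28300 and 40880 in the replicates of root at 6 h, against 31330 and 29690 at 0 h. Their individual levels ran from 45.3 to 2870 at 6 h, against 37.2 to 4778 at 0 h. Their median change was 0.30, beside 0.01 over all genes, with 1 called higher and 3 called lower, where 2.19% and 6.12% of all genes tested were called. At 6 h 38 of the 55 read higher in replicate 2 than in replicate 1, against 24 at 0 h. The share over all genes was not counted. At 6 h rbcS and CB1 to CB5 were also higher in replicate 2. sGFP, a control that should match nothing in these plants, read 3822 and 3373 at 6 h, against 2890 and 1994 at 0 h (log2 difference 0.58), and the other 4 transgene controls differed by 0.24 to 0.96 in the same direction. For CB1 to CB6 the paper also reports RT-PCR from a repeated drying, with and without light. Expression there was lower in the dark, but induction was still clear. That RT-PCR was not analysed here. The part of leaf RNA and of unspecific signal in the array changes of rbcS and CB1 to CB5 was not tested. CB6 differed from them in 3 measured respects: at 0 h it lay below the random-sequence feature, at 6 h it was higher in replicate 1, and its call held without any one of the 4 arrays (adjusted p 0.00216 to 0.00346). At 6 h CB6 was below sGFP on both arrays, as were CB3, CB4 and CB5. rbcS, CB1 and CB2 were above sGFP in replicate 2 and below it in replicate 1.

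**Figure D3:**
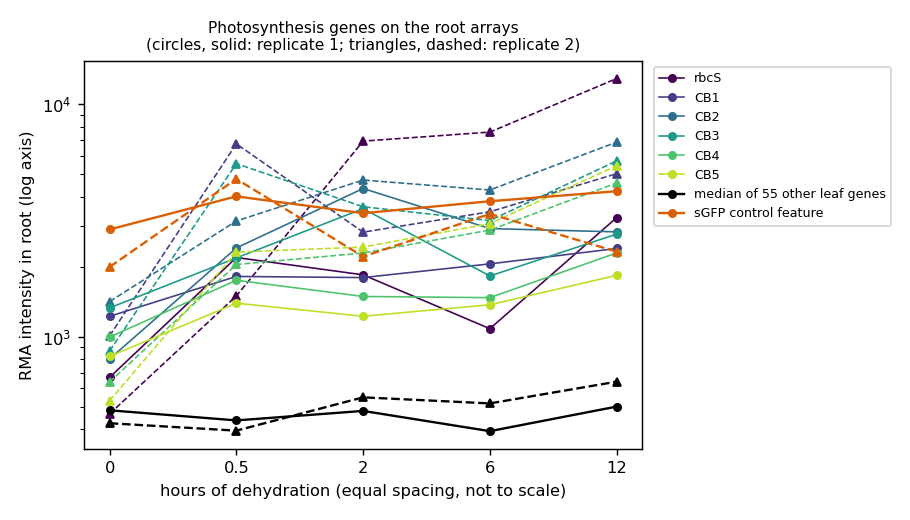
RMA intensity in root on a log axis at 0, 0.5, 2, 6 and 12 h for rbcS and CB1 to CB5, for the median of 55 other leaf genes (black) and for the sGFP control feature (orange), with replicate 1 as circles on solid lines and replicate 2 as triangles on dashed lines. At 6 h rbcS read 1082 in replicate 1 and 7582 in replicate 2, and the leaf-gene median 392 and 516.

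Most other genes could not be described by what they do, because the files give identifiers with no names and none of the 27609 matched the annotation table used here. Among genes whose dimmer group was not below the random-sequence feature on both arrays, the 2 highest rises were those of AK062588 and AK071366. AK062588 read 28648 and 22703 in root at 6 h, against 331 and 119 at 0 h, the second of which was below the random-sequence feature (change 7.01, standard error 0.43, adjusted p = 1.75e-06). AK071366 read 32001 and 31371 at 6 h, against 413 and 287 at 0 h (change 6.52, standard error 0.31, adjusted p = 3.61e-07, the lowest of any gene). In both the 2 arrays at 6 h were close to each other and far above 0 h. The deepest falls under the same condition were those of AK063672 and AK062381. AK063672 read 254 and 101 at 6 h, against 8993 and 10989 at 0 h (change −5.95, standard error 0.78, adjusted p = 5.78e-04), and its second 6 h array was below the random-sequence feature. AK062381 read 700 and 499 at 6 h, against 36037 and 27053 at 0 h (change −5.72, standard error 0.36, adjusted p = 1.75e-06). Both had been well above the random-sequence feature at 0 h.

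The form of the identifier divided the calls unevenly. Among 19848 identifiers starting with AK 491 were higher (2.47%) and 1404 lower (7.07%), and among 6941 starting with Os 96 were higher (1.38%) and 235 lower (3.39%). The median change was −0.05 for AK and 0.15 for Os identifiers. Few calls fell in the small classes, whose changes were measured less precisely. The median standard error was 0.46 for CAA and 0.67 for BAC identifiers, against 0.42 for AK and 0.39 for Os. Of 108 identifiers starting with CAA, 100 of them with a single probe, 1 was called, and of 53 starting with BAC, 44 with a single probe, none was called in either direction by limma, where changes ran from −0.51 to 1.29. The median CAA gene read 3210 and 3650 at 6 h, against 2440 and 3730 at 0 h, and the median BAC gene 3410 and 3410 at 6 h, against 1480 and 3570 at 0 h, so the low values were those of root 0 h replicate 1. Without that array the median change was −0.18 for CAA and 0.03 for BAC, against 0.04 and 0.34 with it. The called one, CAA34007.1, chosen for mention after its values were seen, read 5182 and 5365 at 6 h, against 1081 and 1052 at 0 h (change 2.31, adjusted p = 0.0387), and did not pass without any one of the 4 arrays (adjusted p 0.135 to 0.220).

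The 6 h roots were placed in time by following the called genes over the other root arrays. The 0.5 h, 2 h and 12 h arrays had no part in choosing them beyond the estimate of spread that all 20 arrays share. The median gene of the higher list read 1470, 2150, 6200, 6800 and 7020 at 0, 0.5, 2, 6 and 12 h. Its level at 2 h was close to that at 6 h. The median gene of the lower list read 3930, 2350, 1330, 834 and 650 at the same times. Each later time had a lower median than the one before. Over all genes the medians were 2740, 2360, 2650, 2580 and 2460, and the median change at 0.5 h was −0.30. The lists were chosen on the 0 h and 6 h arrays, which fixes a step away from 0 h in part, so these levels are a description.

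**Figure D4:**
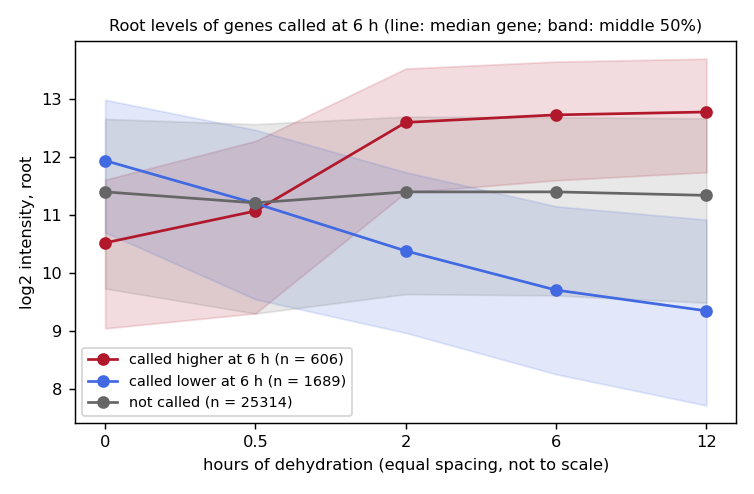
Log2 intensity in root against hours of dehydration (0, 0.5, 2, 6 and 12 h, equally spaced) for the 606 genes called higher at 6 h (red), the 1689 called lower (blue) and the 25314 not called (grey), with lines through the median gene and bands for the middle 50% of genes. The median of the higher list lies at 2150 at 0.5 h and 6200 at 2 h on the linear scale, and that of the lower list is lower at each later time.

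Tested directly, root at 6 h differed little from its neighbours. Against root at 2 h, limma called 0 genes in either direction (0%), with 950 genes (3.44%) at an unadjusted p under 0.05 and a lowest adjusted p of 0.0606. Of the 1001 genes that moved by more than 1 between 2 h and 6 h, 239 were higher and 762 lower at 6 h. In root at 12 h against root at 6 h the count was also 0 in either direction (0%), with 371 genes (1.34%) at an unadjusted p under 0.05 and a lowest adjusted p of 0.554, while 87 genes were higher and 415 lower by more than 1. The genes of the higher list had a median change of 0.20 against 2 h and those of the lower list one of −0.58, and between 6 h and 12 h these medians were 0.04 and −0.31. Other settings gave at most 2 genes higher and 12 lower against 2 h. Since the lists were chosen on the 6 h arrays, these medians are a description, and a missed threshold with 2 arrays a side does not show that the times were equal.

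Single genes took different courses. rab21 averaged 8364 ± 1298, 12144 ± 1641, 40185 ± 11313, 50830 ± 2346 and 52817 ± 5159 at 0, 0.5, 2, 6 and 12 h (SD, n = 2 each). AWPM averaged 2453 ± 222, 11913 ± 3007, 41499 ± 6079, 42492 ± 1756 and 37875 ± 6608 at those times. At 0.5 h AWPM was 2.26 above its 0 h level (adjusted p = 0.0349) and rab21 0.54 above (adjusted p = 0.234), a contrast between genes that was not tested. From 2 h to 6 h neither passed the test, with a difference of 6 h from 2 h of 0.37 for rab21 (interval −0.24 to 0.98) and 0.04 for AWPM (interval −0.97 to 1.05). The means of ADF, in the same order, were 4116 ± 839, 12762 ± 2140, 45193 ± 8236, 35798 ± 342 and 34936 ± 7417.

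CB6 had its highest mean before 6 h. Its means over the 5 times, from 0 h to 12 h, were 93.1 ± 12.5, 214 ± 184, 4654 ± 861, 3076 ± 586 and 1369 ± 739 (SD, n = 2 each). The difference of 12 h from 6 h, −1.27 (interval −2.42 to −0.12), did not pass over all genes (adjusted p = 1). The means of AK062381 decreased at every step, with 31545, 14606, 3496, 600 and 286 from 0 h to 12 h. Its difference of 6 h from 2 h was −2.56 (interval −3.33 to −1.79, adjusted p = 0.0777), which did not pass.

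The change in root at 6 h was then set against the change in leaf at 6 h, for which leaf at 6 h and leaf at 0 h gave 1580 genes higher (5.72%) and 2408 lower (8.72%). Of the 606 genes higher in root, 298 were also called higher in leaf, or 49.2% of those in root and 18.9% of those in leaf. Of the 1689 genes lower in root, 415 were also called lower in leaf, 24.6% of those in root and 17.2% of those in leaf. Opposite calls were few, with 15 genes higher in root and lower in leaf and 35 lower in root and higher in leaf. The median gene of the root higher list read 6560 in leaf at 6 h and 2360 in leaf at 0 h. The median gene of the root lower list read 834 in leaf at 6 h and 1560 in leaf at 0 h. Both lists were chosen on the root arrays, so root and leaf levels of these genes are not compared.

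The difference between the organs was tested by an interaction term, root change minus leaf change. It was positive in 301 genes (1.09%) and negative in 512 (1.85%), together 2.94%. Among the 301, the median root change was 0.52 and the median leaf change −1.81, and 226 of them were called lower in leaf while 75 were called higher in root. Among the 512, the median root change was −2.14 and the median leaf change 1.22, with 366 called lower in root and 165 called higher in leaf. The positive differences thus came more often with a fall in leaf than with a rise in root. Over all genes such calls were also unequal, with 8.72% lower in leaf and 2.19% higher in root. The negative differences came more often with a fall in root than with a rise in leaf, where 6.12% and 5.72% of all genes were called. Leaving out any one of the 8 arrays involved cut the counts to between 49 and 201 positive and between 75 and 334 negative. Under another scaling, with all arrays quantile normalized, 686 differences were positive and 661 negative, so the negative ones were no longer more numerous.

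**Figure D5:**
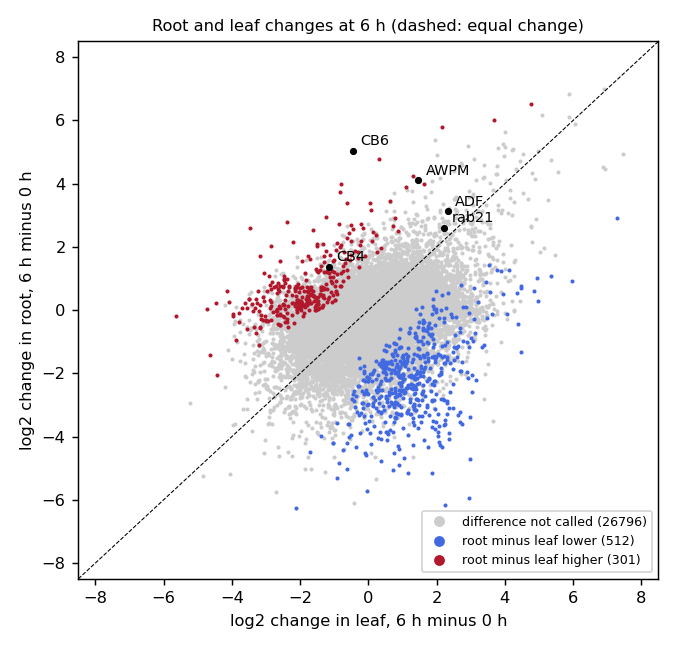
Log2 change in root at 6 h (vertical axis) against log2 change in leaf at 6 h (horizontal axis) for 27609 genes, with genes whose root change exceeded the leaf change in red (301), those with the opposite difference in blue (512) and the rest in grey. The dashed line marks equal change, rab21 and ADF lie near it, and CB6, CB4 and AWPM lie above it.

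rab21 and ADF rose in both organs, by 2.23 and 2.32 in leaf. For rab21 the root change exceeded the leaf change by 0.38 (interval −0.48 to 1.24, adjusted p = 0.691) and for ADF by 0.81 (interval 0.00 to 1.62, adjusted p = 0.262). AWPM rose further in root, by 4.12 against 1.46 in leaf, where it read 14074 and 9373 at 6 h and 6537 and 2656 at 0 h. The difference of 2.65 had an adjusted p of 0.0484, and it was no longer called in 7 of the 8 fits that each left out an array (adjusted p 0.0450 to 0.186). dip1, which hardly moved in root, changed by 1.18 in leaf, and the difference of −0.88 was not called (adjusted p = 0.244).

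The chlorophyll binding genes had higher means in root and lower means in leaf at 6 h than at 0 h. Their root changes were 1.16 to 5.04 and their leaf changes −1.15 to −0.44, none of which was called in leaf. The difference was called for CB6 (5.48, adjusted p = 0.00445), CB4 (2.51, adjusted p = 0.0264) and CB2 (2.23, adjusted p = 0.0404), and not for CB1 (2.18, adjusted p = 0.118), CB3 (2.30, adjusted p = 0.0726) or CB5 (2.43, adjusted p = 0.0881). That of CB6 held without any one array (adjusted p 0.0151 to 0.0257), while those of CB4 and CB2 were each lost in 7 of the 8 fits that left out an array (adjusted p 0.0359 to 0.133 for CB4 and 0.0366 to 0.185 for CB2). With CB6 at 0 h raised to the random-sequence feature its difference was 4.75. Even so, the leaf remained far brighter: CB4 averaged 2172 ± 992 in root at 6 h, against 23145 ± 298 in leaf at 6 h (SD, n = 2 each), and CB6 averaged 3076 ± 586 in root at 6 h, against 14168 ± 1548 in leaf at 6 h. For rbcS the difference of 3.13 had an interval of 0.68 to 5.59 and was not called (adjusted p = 0.154).

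Among identifiers with no name and not below the random-sequence feature on both arrays of a group, 2 had the highest positive differences. AK058449 read 5990 and 6157 in root at 6 h, against 892 and 1119 in root at 0 h, and 148 and 233 in leaf at 6 h, against 1551 and 2754 in leaf at 0 h (difference 6.08, adjusted p = 0.00294). AK070105 read 3407 and 2864 in root at 6 h, against 237 and 873 in root at 0 h, and 367 and 254 in leaf at 6 h, against 1772 and 1427 in leaf at 0 h (difference 5.16, adjusted p = 0.00573). Each rose in root and fell in leaf. The deepest negative differences were those of AK073767 and AK107902. AK073767 read 231 and 190 in root at 6 h, against 6266 and 9033 in root at 0 h, and 811 and 567 in leaf at 6 h, against 261 and 132 in leaf at 0 h (difference −7.03, adjusted p = 0.00306). AK107902 read 298 and 418 in root at 6 h, against 4177 and 3238 in root at 0 h, and 2276 and 2166 in leaf at 6 h, against 373 and 213 in leaf at 0 h (difference −6.36, adjusted p = 0.00146). In these both organs had changed places, root being brighter at 0 h and leaf at 6 h. The gene with the highest rise in root, AK062588, also read far higher in leaf at 6 h, with 20258 and 16022, against 176 and 128 in leaf at 0 h, where both arrays lay below the random-sequence feature. Its fitted difference of 0.10 (adjusted p = 0.963) therefore has no exact size, and with values raised to the feature it was 0.23.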

How the data were processed

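RNA of leaf and root was hybridised by the authors to a NimbleGen rice 3′-tiling array (Cy3, single colour). The deposited values are linear intensities summarised per gene by RMA (version and background step not given in the sources used here), and the authors' own fold-change tables were not used. They were log2-transformed without renormalization or filtering. All 20 arrays entered one linear model of 10 groups (limma 3.58.1 under R 4.3.3, functions lmFit and eBayes, residual df 10, prior df 3.43), which was tested on simulated data. P-values were adjusted over 27609 genes within each comparison, and a call needed both an adjusted p below 0.05 and a change beyond 1 on the log2 scale. P-values and intervals rest on 2 arrays a group, whose number limits the precision.

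Genes named were the study's 12, of which 11 were found on the array by identifier. To these came at most 2 unnamed identifiers in each direction of a comparison. Ranked by change, they were called genes. For the change in root, their arrays did not overlap and the dimmer group was not below the random-sequence feature on both arrays. For root minus leaf differences overlap was not considered, and no group lay below that feature on both arrays. A gene below it there is given as a bound. Since 0 identifiers matched the annotation table, the functional gene lists could not be applied. The leaf and root gene sets needed a log2 difference of 4 at 2 h and, for leaf, a log2 level of 13. Members, lists and rules were chosen with earlier results of these data known.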

Additional observations from a re-analysis of the deposited data

Results flagged for a closer look

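Differences between root and leaf in the change at 6 h passed the interaction test for these named genes. AWPM (2.65, adjusted p = 0.0484), CB2 (2.23, 0.0404), CB4 (2.51, 0.0264) and CB6 (5.48, 0.00445) had the higher change in root, each value being root change minus leaf change on the log2 scale with limma's adjusted p. Those of AWPM, CB2 and CB4 were each lost in 7 of the 8 fits that left out an array, and that of CB6 in none of them. AK071366 rose in both organs, further in root (1.77, adjusted p = 0.0497), but this difference was lost in all 8 such fits (adjusted p 0.0856 to 0.174), with quantile normalization (0.0510) and with arrays centred on their medians (0.0725). AK058449 (6.08, 0.00294) and AK070105 (5.16, 0.00573) also had the higher change in root. The change was lower in root for AK063672 (−8.89, adjusted p = 0.00294), AK062381 (−5.68, 8.88e-04), AK073767 (−7.03, 0.00306) and AK107902 (−6.36, 0.00146). AK063672 lay below the random-sequence feature on both arrays of leaf at 0 h, and with values raised to the feature its difference was −5.76.

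A control feature for sGFP, a sequence these plants do not carry, averaged 3598 in root at 6 h, above the random-sequence feature at 172 to 196 on those arrays.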

How the results depend on the processing

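With 606 higher and 1689 lower genes at 6 h as the starting point, quantile normalization of all arrays gave 913 higher (the higher share moving to 34.4% from 26.4%, and the median change over all genes to 0.11), a test against a log2 change of 1 (limma treat) gave 111 and 120, and leaving out the 2 arrays of 0.5 h with a raised random-sequence feature, a setting chosen after seeing the data, gave 958 higher and 2473 lower. Leaving out 1 of the 4 arrays gave 187 to 462 higher and 272 to 968 lower. Against 2 h, where the count was 0, the lower genes numbered 3 with arrays centred on their medians, 2 without the dimmest 25% of genes, 12 with values raised to the random-sequence feature (and 1 higher), 4 on the root arrays alone, 4 with trend and robust prior, and 9 without those 0.5 h arrays (and 2 higher). Root minus leaf differences (301 and 512) numbered 686 positive and 661 negative with quantile normalization. They numbered 549 positive with raised values, 837 negative with centred arrays and 284 negative without dim genes. Positive and negative differences numbered 13 and 23 with treat, 1201 and 1551 without the 0.5 h arrays, and 49 to 201 and 75 to 334 without 1 array. For AK062588 that difference (0.10, and −0.64 to 0.84 without 1 array) turned to −0.07, −0.64, −0.07 and −0.13 without root 6 h replicate 1, root 0 h replicate 2, leaf 6 h replicate 2 and leaf 0 h replicate 1. Over these settings 624 values were compared, those of named genes and the median changes of the CAA and BAC identifiers. The medians carry no call and counted as unchanged when they shifted by less than the spread of their replicates. Unchanged were 548, which for a gene means the same direction and side of the threshold. Of the rest, 4 gene values changed sign, 60 lost a call and 12 gained one. Among the latter were CB5 with quantile normalization (adjusted p = 0.0363) and rbcS with trend and robust prior (0.0497), and CB2 (0.0532) and CB4 (0.108) were not called on the root arrays alone. The causes were not tested.

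The labels do not say that a replicate number marks a shared batch, and deviations of same-numbered arrays correlated above 0.1 in 38 of 45 pairs of groups but not in all (−0.16 to 0.72, and 0.43 for root at 6 h with root at 0 h), so the numbers were not taken to pair the samples, although most arrays of one number deviated together. With the replicate number as a block, 776 genes were higher and 2143 lower at 6 h, 0 higher and 2 lower against 2 h, 1 higher at 12 h against 6 h, and 585 and 857 root minus leaf differences were positive and negative. CB5 was then called in root (adjusted p = 0.0245), as were the root minus leaf differences of CB3 (0.0469) and CB5 (0.0353).

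Precision was limited by 2 arrays a group and, for dim genes, by signal at or below the random-sequence feature.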
